A study of Homo sapiens with 12 samples.

Results

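DIS3L2, DIS3 and DIS3L are the human members of the RNase II/R family of exoribonucleases, and their transcripts were compared between cells producing wild-type (WT) and catalytically mutant (mut) DIS3L2. The members are the 3 genes with these symbols among 60483 Ensembl genes counted in total RNA, and all 3 were among the 14409 genes that passed the filter on low counts. The cells were HEK293, an established line derived from human embryonic kidney. Through the Flp-In T-REx system, which places a transgene at a fixed genomic site, they carried a doxycycline-inducible cassette. In all groups that cassette encodes FLAG-tagged DIS3L2 together with short hairpin microRNAs against the endogenous DIS3L2 message. The DIS3L2 sequence in the cassette is recoded, and it is WT in one group and carries a mutated catalytic site in the other. Both groups received 100 ng/ml doxycycline for 3 days before RNA was isolated. There were 3 WT and 3 mut total RNA libraries, rRNA-depleted and strand-specific, and 3 WT and 3 mut small RNA libraries. Whether replicates were separate cultures, and whether a group was 1 clone, is not stated in the labels. The p-values therefore measure library-to-library spread, and that spread may be technical. Uninduced cells and cells without the cassette were not analysed here.

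Enzymes of this family digest RNA from its 3′ end, releasing mononucleotides, and share a catalytic RNB domain. DIS3 is the main catalytic subunit of the nuclear exosome, and DIS3L associates with the exosome in the cytoplasm. DIS3L2 acts in the cytoplasm without the exosome and prefers RNAs that carry a tail of uridines added by terminal uridylyltransferases. It is known for degrading uridylated let-7 precursors and other noncoding RNAs, and loss of its function causes Perlman syndrome, an overgrowth disorder with a risk of Wilms tumour.

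The total RNA libraries held 8315986 to 12675042 counts in genes. Reads outside genes made up 12.3% to 13.7% of all listed counts in mut and 16.6% to 19.4% in WT libraries (exact two-sided permutation p = 0.1, the smallest possible with 3 against 3). Reads overlapping several genes, which are in no gene's count, made up 8.599% to 9.861% of them in mut and 6.904% to 8.282% in WT libraries. The part of these shares in the results was not tested. Of 8 markers known in HEK293 cells, 6 passed the filter. The intermediate filament genes NEFL and VIM were at 126 ± 9.09 and 1417 ± 63.9 CPM in mut (SD, n = 3; CPM is the count scaled to a common library size with TMM factors) and 88.3 ± 5.49 and 1210 ± 55.8 CPM in WT. The neurofilament gene NEFM averaged 0.27 and 0.14 CPM and the renal regulator PAX2 0.80 and 0.47 CPM, both too low to be tested. The 8 markers summed to 1840 to 1960 CPM in mut and 1530 to 1680 CPM in WT, and VIM made up most of both sums. Of the 6 tested, 5 were called higher, against 13% of all genes. The keratin genes KRT8 and KRT18 lost the call with the replicate block, with no filter on low counts and without mut library 1 or WT library 1, which left 3 of the markers called in each of these fits. Of the 4 blood markers 3 are listed at 0, and their sum reached at most 0.157 CPM. Both hepatocyte markers together reached 0.369 CPM. Of the 4 fibroblast markers, COL1A2 and DCN are listed at 0, and the sum was 3.10 to 5.02 CPM in mut and 1.47 to 2.27 CPM in WT. The other 2, COL3A1 and COL1A1, were both called higher, at log2 fold changes of 2.03 and 0.83 (edgeR adjusted p = 0.0011 and 0.033). They had at most 13 and 32 counts in any library. COL3A1 kept its call in the edgeR test against a 1.5-fold change (adjusted p = 0.044), and DESeq2 gave it no adjusted p. COL1A1 lost its call in that test, in DESeq2 and without mut library 1 or 2 or WT library 1 or 3.

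Transcripts of DIS3L2 and DIS3L were more abundant in mut cells, by 39.1% and 22.6%, while DIS3 did not pass the test. DIS3L2, the gene from which the cassette derives, had a log2 fold change of 0.48, and DIS3L had 0.29. For DIS3 the estimate was −0.19, with overlapping libraries. So 2 of the 3 members were called, both higher. Of all genes tested, 27.2% were called in either direction and 13% higher (edgeR, adjusted p under 0.05). Among genes within 0.5 to 2 times the mean level of DIS3L2, DIS3 and DIS3L, 40.2%, 35.4% and 34.6% were called in either direction. No overlap between the mut and WT libraries was seen for 2 members and for 40.5% of all genes.

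DIS3L2 (ENSG00000144535.18) lies on chromosome 2, 231961713 to 232344350 (hg38), a span of 382638 bases. It had 10242, 8858 and 9496 counts in mut libraries 1, 2 and 3, which is 1144, 1040 and 1091 CPM. In WT libraries 1, 2 and 3 it had 7382, 10386 and 6322 counts, or 763, 813 and 777 CPM. The raw count of WT library 2 is the highest of the 6, and that library is also the deepest; after scaling every mut library lies above every WT library. The means were 1092 ± 51.6 and 784 ± 25.8 CPM (SD, n = 3), a log2 fold change of 0.48 (95% interval 0.37 to 0.58, SE 0.05, edgeR adjusted p = 1.9e-07). The interval lies below a 1.5-fold change. Among 169 genes whose mean level was within 0.5 to 2 times that of DIS3L2, 3.55% had a fold change at least as large in either direction. The gene count can hold reads of the cassette and of the endogenous message, and their shares were not tested, so the value shows neither how far the hairpins silenced the endogenous gene nor how much protein was made.

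Genes inside or next to the DIS3L2 span did not share its level. The microRNA gene MIR562 lies within the span and had at most 1 count in any library. The pseudogene NRBF2P6, which overlaps the 3′ end of the span by 1322 bases, had at most 2. The pseudogene copy DIS3L2P1 is listed at 0 in all 6 libraries. The nearest tested protein-coding genes were NPPC, which encodes the C-type natriuretic peptide precursor, and ALPP, the placental alkaline phosphatase gene. NPPC averaged 4.25 ± 0.60 CPM in mut and 4.88 ± 1.17 in WT, and ALPP at 2.82 ± 0.46 and 2.31 ± 0.48. Neither passed the test (edgeR adjusted p = 0.40 and 0.42).

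**Figure D1:**
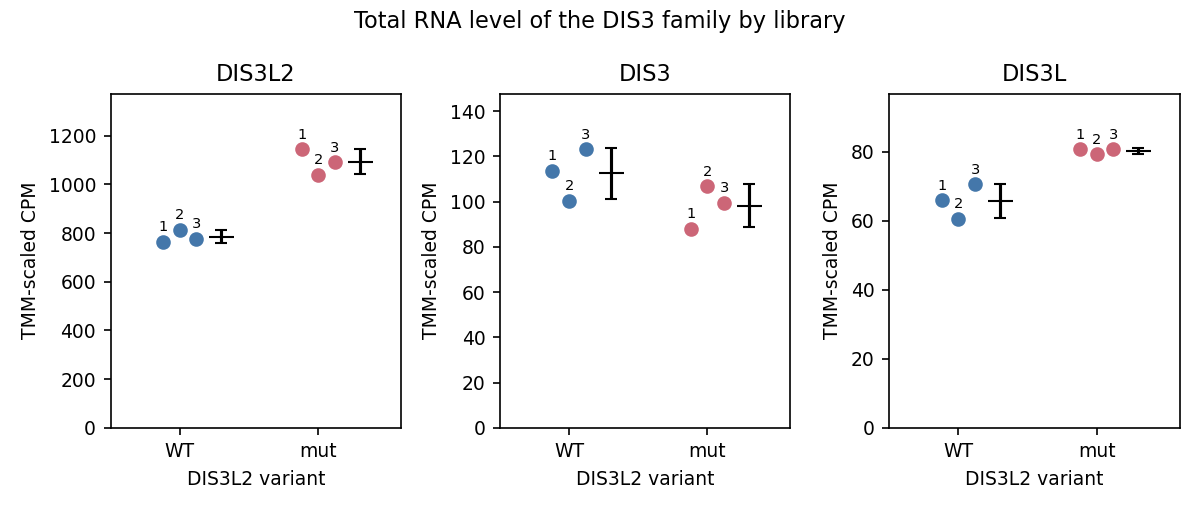
Levels of DIS3L2, DIS3 and DIS3L in TMM-scaled CPM (vertical axes, each from 0) in the WT and mut total RNA libraries. Points are libraries, numbered by replicate, and the bar beside them is the mean ± SD of 3. For DIS3L2 the mut libraries sit between 1040 and 1144 CPM, above all WT libraries, and for DIS3 the groups overlap.

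DIS3L (ENSG00000166938.11), the cytoplasmic exosome partner, lies on chromosome 15, 66293309 to 66333898. Its mut libraries held 722, 674 and 702 counts, or 80.6, 79.2 and 80.7 CPM. Its WT libraries held 638, 773 and 574 counts, or 66.0, 60.5 and 70.5 CPM. The coefficient of variation was 1.07% in mut and 7.62% in WT, and the groups do not overlap. At 674 to 722 counts a library, counting error alone would give a larger spread than that of mut. The low value therefore does not describe the mut cells. The means of 80.2 ± 0.86 and 65.7 ± 5.01 CPM (SD, n = 3) gave a log2 fold change of 0.29 (95% interval 0.15 to 0.44, SE 0.07, edgeR adjusted p = 0.0026). Of 4410 genes of like level, 17.3% had a change at least as large. An antisense RNA, DIS3L-AS1, overlaps the start of DIS3L by 191 bases. Its counts were 6 in each mut library and 1, 3 and 2 in the WT libraries, too few to pass the filter.

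DIS3 (ENSG00000083520.13), the nuclear exosome nuclease, lies on chromosome 13, 72752169 to 72781900. Its counts were 789, 910 and 866 in mut and 1100, 1283 and 1003 in WT. Scaled, these are 88.1, 106.9 and 99.5 CPM in mut and 113.7, 100.5 and 123.2 CPM in WT. Mut library 2 lies above WT library 2, so the groups overlap. The means were 98.2 ± 9.46 and 112.5 ± 11.4 CPM (SD, n = 3), and the log2 fold change of −0.19 (95% interval −0.35 to −0.03, SE 0.08) did not pass the test (edgeR adjusted p = 0.065). Single libraries set this outcome. DIS3 was called lower when mut library 2 or WT library 2 was left out, at −0.26 and −0.27 (edgeR adjusted p = 0.022 and 0.010). The estimate was −0.11 when mut library 1 or WT library 3 was left out (edgeR adjusted p = 0.32 and 0.40). Without the filter on low counts it was also called lower, at −0.20 (edgeR adjusted p = 0.030). The interval spans falls from 0.03 to 0.35 on the log2 scale.

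**Figure D2:**
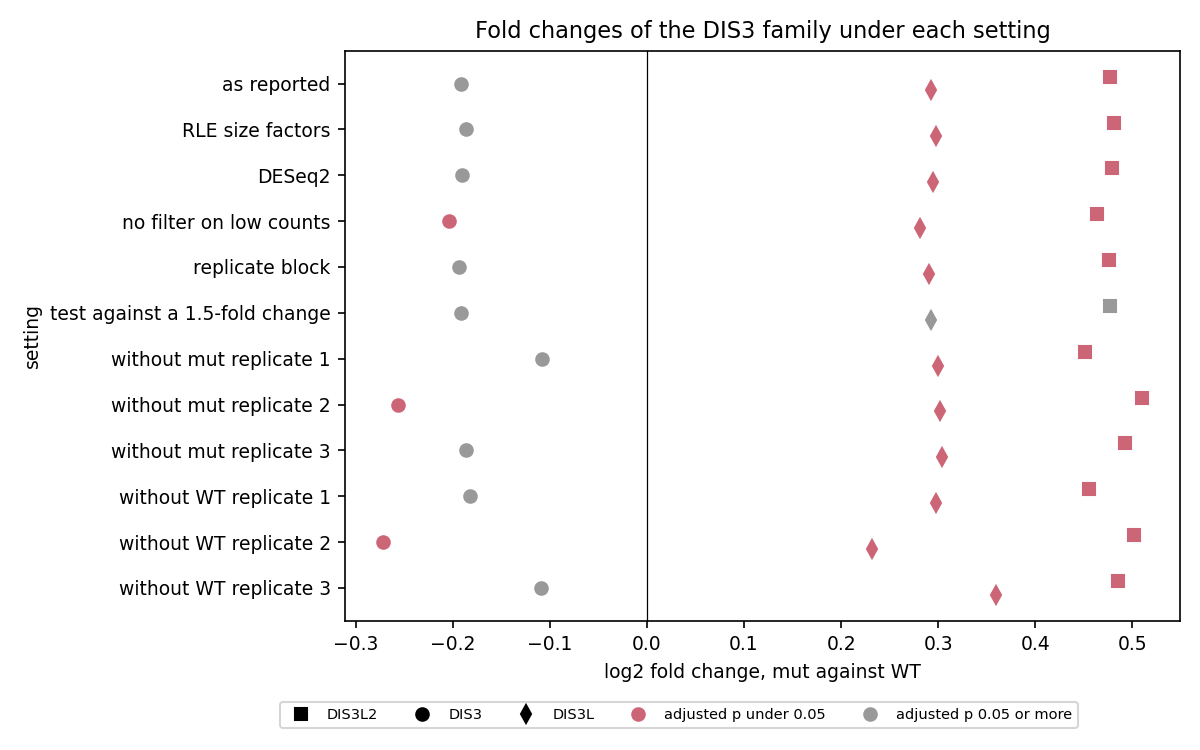
Log2 fold change of each member, mut against WT (horizontal axis), under each processing setting (vertical axis). Squares are DIS3L2, circles DIS3 and diamonds DIS3L, coloured where the adjusted p is under 0.05; DIS3 moves between −0.27 and −0.11 and in and out of the call, while DIS3L2 and DIS3L lose it only in the test against a 1.5-fold change.

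DIS3 shares ground with neighbours at both ends. Its last 4028 bases overlap those of BORA, which encodes an activator of Aurora A kinase, and reads assigned to both genes are in neither count. How many such reads there were depends on the strand setting of the counting, which is not stated. BORA averaged 21.1 ± 1.81 CPM in mut and 19.7 ± 1.33 in WT (edgeR adjusted p = 0.51). At the other end DIS3 and PIBF1, a centrosomal protein gene, start back to back, 232 bases apart. PIBF1 averaged 32.9 ± 3.07 CPM in mut and 34.1 ± 1.96 in WT, a log2 fold change of −0.05 that did not pass the test (edgeR adjusted p = 0.73) and was 0.04 without mut library 1. That stretch is shown because it precedes both starts and the levels of both genes were measured. It is chr13:72781901-72782132, minus strand, from RefSeq on GRCh38.p14, with capitals for matches to CCAAT and GGGCGG on either strand:
DIS3 to PIBF1: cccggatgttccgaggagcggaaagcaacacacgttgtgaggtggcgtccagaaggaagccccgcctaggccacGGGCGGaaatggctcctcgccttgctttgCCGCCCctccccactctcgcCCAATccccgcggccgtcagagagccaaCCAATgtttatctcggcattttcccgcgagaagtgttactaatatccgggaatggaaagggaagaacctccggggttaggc
Within it, CCAAT occurs 2 times and GGGCGG once on each strand, none overlapping another. Among 35097 promoter windows of 232 bases, 30.6% hold CCAAT and 41.8% hold GGGCGG, counted on both strands. TATAAA, in 9.99% of windows, and CCGGAAG, in 8.28%, were also searched on both strands and are not in this window. These matches describe letters and not binding.

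Counts of the members within 1 library give ratios that do not depend on scaling between libraries. They are ratios of reads and not of molecules, since no transcript lengths were used, and show only whether members changed unequally. DIS3L2 had 13, 9.73 and 11 reads per DIS3 read in mut libraries 1, 2 and 3 and 6.71, 8.10 and 6.30 in WT. The ratio was higher in every mut library than in any WT library, with means of 11.2 ± 1.64 and 7.04 ± 0.94 (SD, n = 3), a difference of 0.67 on the log2 scale. DIS3 had 1.09, 1.35 and 1.23 reads per DIS3L read in mut and 1.72, 1.66 and 1.75 in WT, again without overlap, a difference of −0.49. Each of these differences reached the smallest p that 20 assignments allow (exact two-sided permutation p = 0.1, 0.15 adjusted over 3 ratios). The ratio of DIS3L2 to DIS3L was 14.2, 13.1 and 13.5 in mut and 11.6, 13.4 and 11.0 in WT. These groups overlap, and the log2 difference of 0.19 had an exact permutation p of 0.2. The DIS3 to DIS3L ratio thus did not overlap between the groups, although DIS3 alone did. DIS3L, the denominator, was itself called and did not overlap. How often ratios of other gene pairs show no overlap was not tested.

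**Figure D3:**
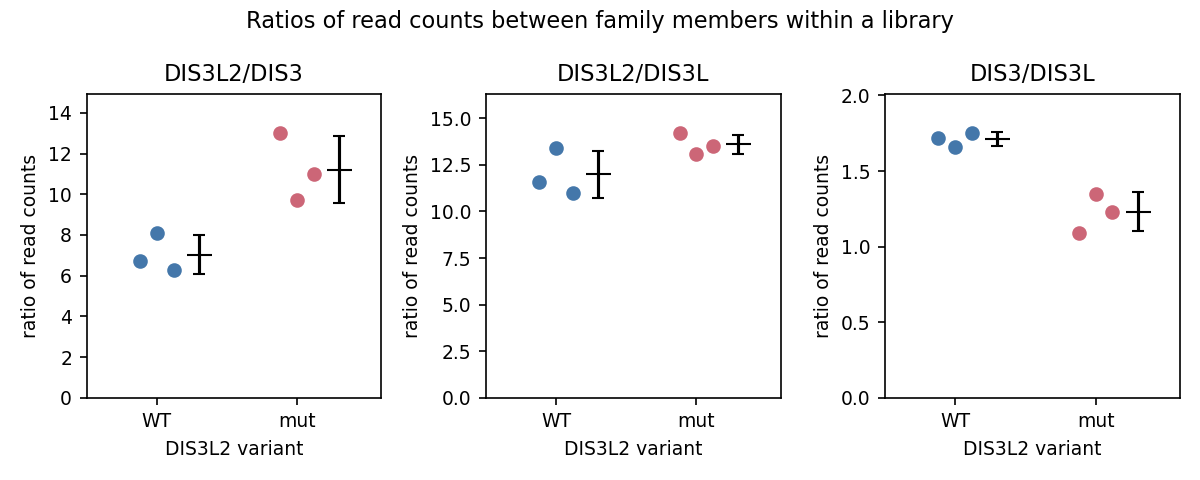
Ratios of read counts between members within each total RNA library (vertical axes, from 0), for WT and mut. Points are libraries and bars the mean ± SD of 3; DIS3L2/DIS3 is 6.30 to 8.10 in WT and 9.73 to 13 in mut, and DIS3/DIS3L is 1.66 to 1.75 and 1.09 to 1.35.

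The chromosome surroundings of the members were then compared, using the 10 nearest tested protein-coding genes on each side. These genes lie between 230712842 and 233472098 on chromosome 2 for DIS3L2 and between 65230917 and 67530146 on chromosome 15 for DIS3L. For DIS3 they lie between 52412606 and 77027159 on chromosome 13, a far wider stretch. Around DIS3L, 8 of 20 neighbours were called higher and 0 lower, with a median log2 fold change of 0.21, against 13% of all genes called higher and a median of −0.01. With 20 genes on each side 9 of 40 were called higher and 2 lower, and the median was 0.12. Among the nearer 20, refits without single libraries called 7 to 9 higher and 0 lower, and DESeq2 called 6 and 0. The tested genes directly beside it were TIPIN, which acts in replication fork protection, at 0.31, and MEGF11, a cell surface protein gene, at 0.34. MAP2K1, the MEK1 kinase gene just beyond TIPIN, was at 0.31. RPL4 and HACD3 were at 0.28 and 0.37. All 5 were called higher by edgeR, though MEGF11 was not when mut library 1 or 2 or WT library 1 was left out (adjusted p = 0.081, 0.080 and 0.16) or in DESeq2 (adjusted p = 0.16). On chromosome 15 as a whole 122 of 401 other protein-coding genes were called higher and 40 lower. DIS3L exceeded the median of its neighbours by 0.09, and 6 of the 20 had a larger fold change. Set against the median of these neighbours in each library, a comparison chosen after the values were seen, DIS3L differed by 0.10 between mut and WT, and the groups overlapped (exact permutation p = 0.2).

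Of the 20 neighbours of DIS3L2, 2 were called higher and 1 lower, against 13% and 14.2% of all genes, and their median was 0.03. These counts were 0 higher and 0 lower without WT library 3, 0 and 1 without WT library 1, and 1 and 0 in DESeq2. They were 3 and 0 without mut library 2, without WT library 2, and with RLE in place of TMM size factors. Among the 20, 1 gene, the endopeptidase-like gene ECEL1, had a larger fold change than DIS3L2 itself (0.51, not called, edgeR adjusted p = 0.063). Relative to its neighbours DIS3L2 differed by 0.40 between mut and WT, without overlap of the libraries (exact permutation p = 0.1, the smallest possible, 0.3 adjusted over the 3 members). Protein-coding genes of like span, within 0.5 to 2 times that of DIS3L2, had a median log2 fold change of −0.10, with 87 higher and 259 lower of 999. DIS3L2 lies above the medians of both sets. Its count can also hold reads of the cassette, so these comparisons do not describe the endogenous gene alone. Around DIS3, 2 of 20 neighbours were called higher and 3 lower, against 13% and 14.2% of all genes, and their median was −0.08. Without WT library 3, and in DESeq2, 1 was called higher and 1 lower; without mut library 1 it was 1 and 2, and the median was −0.01. MZT1, a gamma-tubulin complex gene beside BORA, was higher by 0.26 (edgeR adjusted p = 0.0086, or 0.054 without WT library 3). Relative to its neighbours DIS3 differed by −0.12, with overlapping groups (exact permutation p = 0.3).

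**Figure D4:**
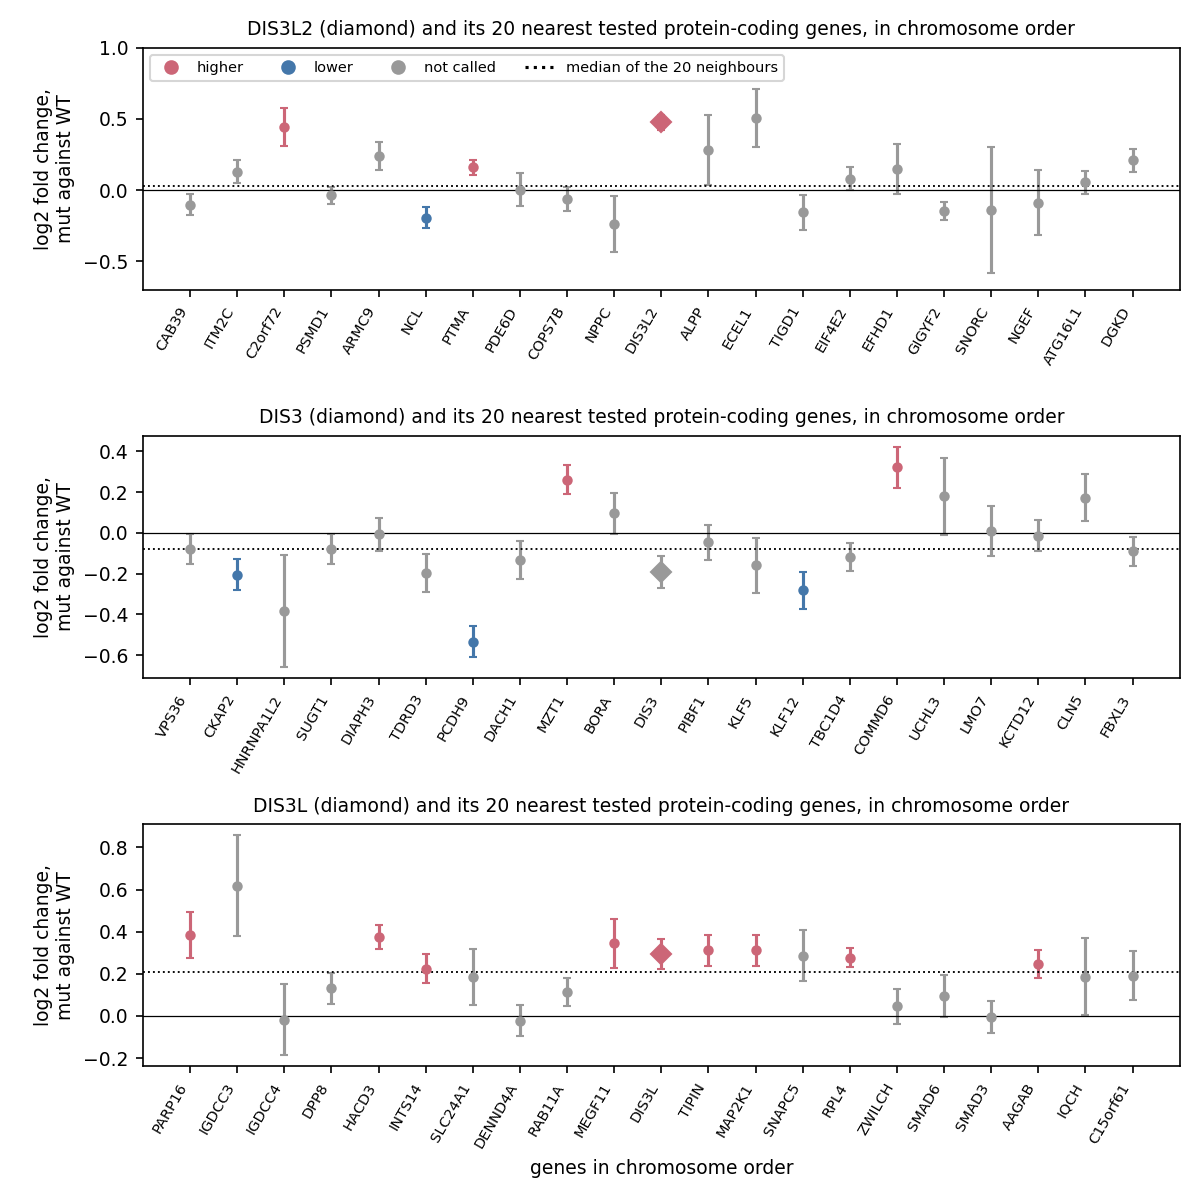
Log2 fold change, mut against WT (vertical axes, points ± SE), of each member (diamond) and its 20 nearest tested protein-coding genes in chromosome order (horizontal axes). Colours give the edgeR call and the dotted line the median of the neighbours, which is 0.03 around DIS3L2, −0.08 around DIS3 and 0.21 around DIS3L.

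Genes that work with the family, and other RNA decay and tailing genes, were counted from 6 lists. Of 51 genes listed, 50 passed the filter, and 8 were called higher and 11 lower in mut. This is 38%, against 27.2% of all genes, with a median log2 fold change of −0.06 against −0.01. Among genes of like level to DIS3L2, DIS3 and DIS3L, the shares called were 40.2%, 35.4% and 34.6%. No set matched in level to the lists was drawn. LIN28A, the uridylation cofactor of stem cells, had at most 0.115 CPM and was not tested.

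The exosome core list held the ring and cap of subunits to which DIS3 binds, and EXOSC10. Of its 10 genes 2 were called higher and 0 lower, against 13% and 14.2% of all genes, and the median was 0.03. The ring subunit gene EXOSC6 rose from 134.9 ± 3.94 to 161.5 ± 7.80 CPM (log2 fold change 0.26, edgeR adjusted p = 0.0024). EXOSC5, another ring subunit, rose by 0.24 (adjusted p = 0.017), but its call ended when mut library 1 or either of WT libraries 1 and 3 was left out (edgeR adjusted p of 0.071, 0.074 and 0.071). EXOSC9, with 47.8 ± 0.48 CPM in mut and 54.6 ± 5.99 in WT, did not pass (adjusted p = 0.083). EXOSC10, the second nuclease of the nuclear exosome, had 153.5 ± 1.77 and 151.5 ± 3.04 CPM.

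Nuclear exosome cofactors split, with 2 of 9 called higher, 4 called lower and a list median of −0.17. Of all genes, 13% were called higher and 14.2% lower. MTREX, the helicase that feeds RNA into the nuclear exosome, was higher at 166, 185 and 179 CPM in mut against 153, 141 and 149 in WT, and the poly(A) polymerase gene TENT4A rose by 0.30. MPHOSPH6, an exosome-associated protein gene, was lower at 22.2, 18.4 and 20.2 CPM against 31.7, 28.7 and 28.8 (log2 fold change −0.55, edgeR adjusted p = 1e-04). ZFC3H1, of the connection that targets polyadenylated nuclear RNA to the exosome, fell by 0.53. ZCCHC7, of the TRAMP complex, fell by 0.45, and TENT4B by 0.27. Libraries of the 2 groups did not overlap for any of these 6 genes. They are the genes called from the same libraries, so this adds no support to the calls. The 3 genes of the list that were not called overlapped. No overlap was seen for 40.5% of all genes, called or not.

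In the cytoplasm, where DIS3L and DIS3L2 act, the cofactors of the exosome also split, with 1 of 4 higher and 1 lower. The shares over all genes were 13% and 14.2%. SKIC8 and SKIC3 are subunits of the same SKI complex, which unwinds RNA for the exosome. SKIC8 was at 61.4, 63.5 and 64.7 CPM in mut and 49.4, 48.0 and 47.7 in WT, a log2 fold change of 0.39 (edgeR adjusted p = 0.00018), and like DIS3L it lies on chromosome 15. SKIC3 was at 191, 247 and 221 CPM against 283, 256 and 300 (−0.35, adjusted p = 0.00099). The helicase gene SKIC2 had 75.1 ± 4.70 and 68.7 ± 5.02 CPM (edgeR adjusted p = 0.22). HBS1L, also on this list and counted as a whole gene, had 138 ± 10.0 and 145.5 ± 9.47 CPM (edgeR adjusted p = 0.44).

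Of 5 tested genes for uridylation, other tailing and LIN28 proteins, 4 were called lower and 0 higher, against 14.2% of all genes called lower. Their median was −0.34. The uridylyltransferase TUT7 was at 27.2, 34.1 and 32.3 CPM in mut and 45.4, 40.9 and 50 in WT, a log2 fold change of −0.53 (edgeR adjusted p = 9.8e-05). TUT4, its partner enzyme in uridylating let-7 precursors, was at 87.5, 85.0 and 91.0 CPM against 112, 102 and 119 (−0.34, adjusted p = 0.00061). In both genes every mut library lies below every WT library. Both were called from these same libraries, so this adds no support to the calls. No overlap, in either direction, was seen for 40.5% of all genes, called or not. The tailing enzyme gene TENT2 fell by 0.42 and LIN28B, which recruits uridylyltransferases to let-7 precursors, by 0.22 (adjusted p = 5.9e-05 and 0.023). The LIN28B call ended when mut library 1 or either of WT libraries 1 and 3 was left out (adjusted p = 0.11, 0.15 and 0.14), and it did not pass in DESeq2 (adjusted p = 0.055). TUT1, the uridylyltransferase of U6 RNA, had 5.28 ± 0.32 CPM in mut and 4.27 ± 0.72 in WT and did not pass (adjusted p = 0.20).

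Other 3′ exonucleases were called in 4 of 19 cases, 2 higher and 2 lower, with a median of −0.07. This is 21.1%, against 27.2% of all genes. AEN, a nuclease gene induced by p53 and also on chromosome 15, was at 206, 212 and 205 CPM in mut and 135, 140 and 128 in WT, a log2 fold change of 0.62 (edgeR adjusted p = 1.9e-08). TOE1, which trims the ends of small nuclear RNAs, rose by 0.37. PNPT1, the mitochondrial polynucleotide phosphorylase gene, fell by 0.25 and ERI2 by 0.22 (adjusted p = 0.0081 and 0.031). The PNPT1 call ended when library 3 of mut or of WT was left out (adjusted p = 0.058 and 0.056). For ERI2 this held for mut library 1 and for WT libraries 1 and 3 (adjusted p = 0.18, 0.095 and 0.15) and for DESeq2 (adjusted p = 0.10). Among 3 genes for 5′ exonucleases DXO rose by 0.30 (edgeR adjusted p = 0.012, or 0.071 without WT library 1 and 0.060 in DESeq2), XRN1 was at 66.6 ± 10.6 and 73.2 ± 6.78 CPM, and XRN2 at 278.9 ± 2.59 and 272.6 ± 4.36.

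**Figure D5:**
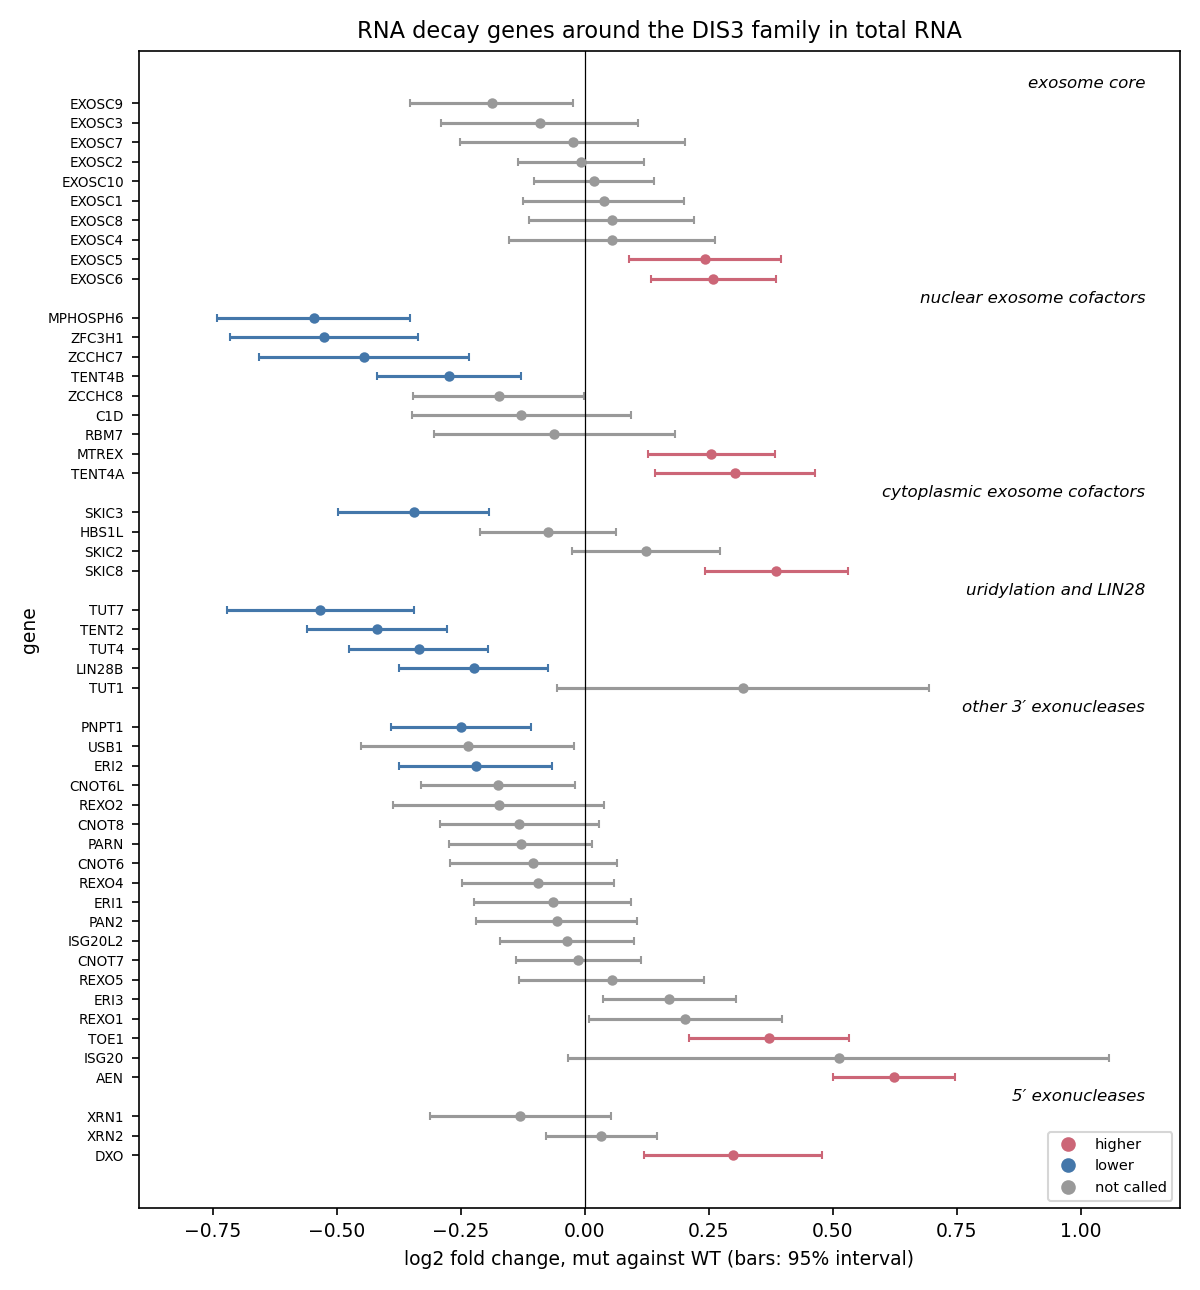
Log2 fold change, mut against WT (horizontal axis), of the 50 tested genes of the 6 lists (vertical axis, by list), with 95% intervals. Red genes were called higher and blue genes lower by edgeR; 4 of the 5 uridylation and LIN28 genes are lower, and 8 of the 10 exosome core genes were not called.

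The genes whose profiles over the 6 libraries were nearest to each member were found among 12095 protein-coding genes, by the root mean square difference of log2 CPM after each gene's own mean was subtracted. For DIS3L2 these were RASL10B, TNFRSF11A and POLG, at distances of 0.02, 0.02 and 0.03. For DIS3 they were DENND4C, RANBP2 and RICTOR, each at 0.02, and for DIS3L they were ARHGAP44, PDZRN3 and COMMD8, each at 0.03. None of these is on the chromosome of its member. With 6 libraries in 2 groups, such likeness is a description of the group difference and of its spread.

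The small RNA libraries, which held 493314 to 1219718 fragments, had few features to measure at the members. The deposited features include 2 within DIS3L2, MIR562 at 232172653 to 232172747 and a reconstructed locus on the minus strand at 232252429 to 232252532, and 0 within DIS3 and DIS3L, where small RNA was therefore not measured. Both features had 0 fragments in all 6 libraries, which allows up to 3 fragments each, or 2.46 to 6.08 on the FPM scale (depth-scaled fragments), for counting error only.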

How the data were processed

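Build hg38 and the tools STAR 2.4.0, HTSeq 0.6.1, SAMtools 1.2-10, CASAVA 1.8.2, DESeq2 1.8.2 and FastQC 0.11.3 are listed, with no role, in the submitters' processing notes. No annotation version or strand setting is stated (not given in the sources used here). The authors deposited raw read counts per Ensembl gene for total RNA. For small RNA the authors deposited fragment counts, an FPM signal (depth-scaled fragments) and FPKM per feature, of which the counts and the totals behind the FPM signal were used. Symbols were matched to 56321 of 60483 identifiers, and coordinates are from RefSeq GRCh38.p14, the same build. Between 57.8% and 63.2% of all listed counts were in rows without a gene, which were left out. One of these rows, with 30.51% to 42.03%, is for reads aligned at several places. Whether such a read was counted once or once per alignment was not checked. The shares outside genes and in several genes are of the same total.

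Genes were tested with the edgeR 4.0.16 quasi-likelihood F test (R 4.3.3, filterByExpr, TMM), two-sided, with Benjamini-Hochberg adjustment over 14409 genes at 0.05. On counts simulated with these library sizes (14220 genes fitted) it called 63% of 100 genes changed 1.5-fold and 91.8% of 97 changed 2-fold. It called 0.0499% of unchanged genes. The spread between simulated libraries was set at the same fixed value for all genes, not estimated from these data, and few genes were changed. These shares hold for those settings and do not give the error rate or power of the test on the real counts. SE and intervals derive from the fold change and its F statistic. DESeq2 1.42.0 was an alternative. Ratios used exact permutation tests over 20 assignments. The members and gene lists were chosen with earlier results of these data known. Genes named are the members, list genes that were called or were among the 4 with the smallest adjusted p of their list, overlapping and adjacent genes, and the 3 nearest profiles per member. EXOSC10, TUT1, ECEL1, MAP2K1, RPL4, HACD3 and the named markers were added after their values were seen. Replicate pairs of a group differed by more than sampling noise (chi-square per degree of freedom 1.97 to 4.46), so each library counted as 1 sample.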

Additional observations from a re-analysis of the deposited data

How the results depend on the processing

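DIS3L2 and DIS3L stayed higher in mut under all 11 alternatives, at 0.45 to 0.51 and 0.23 to 0.36 on the log2 scale. Both passed 10 of them and lost the call in the edgeR test against a 1.5-fold change, where the estimates are again 0.48 and 0.29. DIS3 kept its sign in all 11 and ranged from −0.27 to −0.11 without single libraries, with a call in 3 alternatives, among them −0.20 without the filter on low counts. DESeq2 called 2450 genes, 1200 higher and 1250 lower, while 141, 83 and 58 were past a 1.5-fold change. Leaving out single libraries gave 1274 (without WT library 3) to 2109 lower genes. In the same refits 1 to 2 exosome core genes were higher and 0 to 1 lower, 0 to 2 other 3′ exonuclease genes were lower, and 0 to 1 of the 5′ exonuclease genes were higher and 0 to 1 lower. RLE size factors changed none of the list counts by more than 1.5 times. The neighbours' median was −0.081 around DIS3L2 with 20 genes on each side, and 0.25 and 0.12 around DIS3L with 5 and 20. PIBF1 ranged from −0.091 to 0.036 without single libraries, positive without mut library 1. Counts of called neighbours and markers in other fits, and of list genes in DESeq2 or with the block, were added after the data were seen. The cause of these changes was not tested.

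Replicate numbers did not pair the libraries, with correlations of same-numbered deviations of −0.09, −0.07 and 0.03. With the replicate number as a block DIS3L2, DIS3 and DIS3L had 0.48, −0.19 and 0.29, each on the same side of the threshold, and ERI2, KRT8, KRT18 and PTMA, a neighbour of DIS3L2, lost their calls (edgeR adjusted p = 0.056, 0.089, 0.075 and 0.078). With 3 libraries a group no permutation p can fall below 0.1.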
